A study of Mus musculus with 162 samples.

Results

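The trigeminal ganglion holds the cell bodies of the sensory neurons that innervate the face, and its transcriptome was compared here between mice treated on the cheek with MC903 and mice treated with ethanol, at day 8 of the treatment. The libraries were chosen by their labels, as those of trigeminal ganglion from wild-type mice with no injection at day 8, which gave 10 of the 162 libraries in the series and 10 of its 65 libraries of trigeminal ganglion. Of these, 5 came from MC903-treated mice and 5 from mice that received ethanol, the vehicle. Titles of a distinct style marked 2 libraries of each treatment, called cohort A here, and the remaining 3 of each were called cohort B. What else separated the cohorts is not given in the labels.

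MC903 (calcipotriol) is an analog of vitamin D that drives keratinocytes to make inflammatory cytokines when it is put on the skin, and it is used in mice as a model of atopic dermatitis. In this study adult male C57BL/6 mice received 20 µL of 0.2 mM MC903 in ethanol, or ethanol alone, once daily on the shaved cheek, and the ganglion of the treated side was taken. The treated tissue was thus the skin, so the ganglion measurements concern neurons and non-neuronal cells at a distance from the drug. All 10 libraries are labelled wild-type and uninjected. The title of cohort A ethanol replicate 2 bears a double number, and whether it pools animals is not stated. The labels do not say that each library came from a separate animal, and the p-values below measure the spread between these libraries, which may in part be technical.

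Itch is carried from the skin by small-diameter sensory neurons. A class of them called NP3 carries natriuretic peptide B and somatostatin as transmitters and the receptors for interleukin 31, oncostatin M and cysteinyl leukotrienes, while the NP1 and NP2 classes carry Mas-related G protein-coupled receptors. Sensory neurons that fire more, or that receive cytokine signals through the JAK-STAT pathway, switch on transcription factors and then secreted proteins such as growth factors, neuropeptide precursors and synaptic organizers.

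Gene counts came to between 26757001 and 38017376 per library, with a median of 32794122.5. Levels are given as cpm, gene counts scaled to the library's total with TMM factors, which are not divided by gene length and so compare libraries but not genes. The sensory neuron markers summed to 8405 to 11441 cpm in the MC903 libraries and 7272 to 9534 cpm in the ethanol libraries, with no marker at 0. None of 19 marker lists for the cell types that a ganglion dissection can hold separated the treatments over all 10 libraries. Within each cohort, the sum for lymph node stroma and plasma cells was lower with MC903. It was at most 56.96 cpm against at least 57.48 cpm in cohort A, and 47.53 against 48.58 cpm in cohort B. In cohort A alone other sums were also apart, among them satellite glia, T cell and mature B cell (higher with MC903) and fibroblast and meninges (lower). The macrophage sum was 64.4 to 97.5 cpm with MC903 and 61.5 to 105 cpm with ethanol, and the T cell sum 9.72 to 13.8 against 7.93 to 12.8 cpm. Cohort B ethanol replicate 2 stood apart on the first principal component (43.2% of the variance) and held the highest Schwann cell sum, 16431 cpm. Cohort B ethanol replicate 3 held the highest level of interferon-induced genes, described with them. In bulk tissue, fewer cells of a type and less RNA per cell cannot be told apart.

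Of 25600 genes tested, 41 (0.16%) differed between MC903 and ethanol past an adjusted p of 0.1, the study's threshold for this tissue (edgeR quasi-likelihood test with a cohort term, Benjamini-Hochberg adjustment over all genes tested). Of these, 32 (0.125%) rose with MC903, by 0.44 to 3.97 on the log2 scale, and 9 (0.0352%) were lower, with log2 fold changes from -1.95 to -0.57. The genes that rose included Il31ra and Osmr for the interleukin 31 receptor, Vgf, Nptx2 and Bdnf for secreted neuronal proteins, the Serpina3 protease inhibitor genes and Socs3. Those that fell included 3 genes of MHC class II presentation and 2 guanylate-binding protein genes. The treatments did not overlap within either cohort in 39 of the 41 genes, a pattern shown by 717 genes in all (2.8%). Over all genes, 1787 had an unadjusted p under 0.05, and the median log2 fold change over all genes was 0.0077. The last gene inside the threshold was Gbp8 (adjusted p = 0.0992 by the edgeR quasi-likelihood test) and the first outside was H2-Eb1 (adjusted p = 0.1004).

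The number of genes past the threshold depended on single libraries. It was 5 without cohort A ethanol replicate 1, 5 without cohort A ethanol replicate 2, 8 without cohort A MC903 replicate 2 and 23 without cohort A MC903 replicate 1. In cohort B it was 12 without MC903 replicate 3, 22 without MC903 replicate 2 and 71 without ethanol replicate 2. Il31ra, Vgf, Nptx2, Bdnf and Serpina3i passed in all 10 of these fits, and Serpina3g in 8. The other 35 called genes passed in 1 to 7 of them, among which 9230105E05Rik passed in 1, Gbp8, Gbp9, Parp14, Etnppl and Gadd45g in 2, and Cd74, Gvin1, Plod3, Loxl4, Timeless and Adamts8 in 3. No called gene changed direction in any of the fits.

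**Figure D1:**
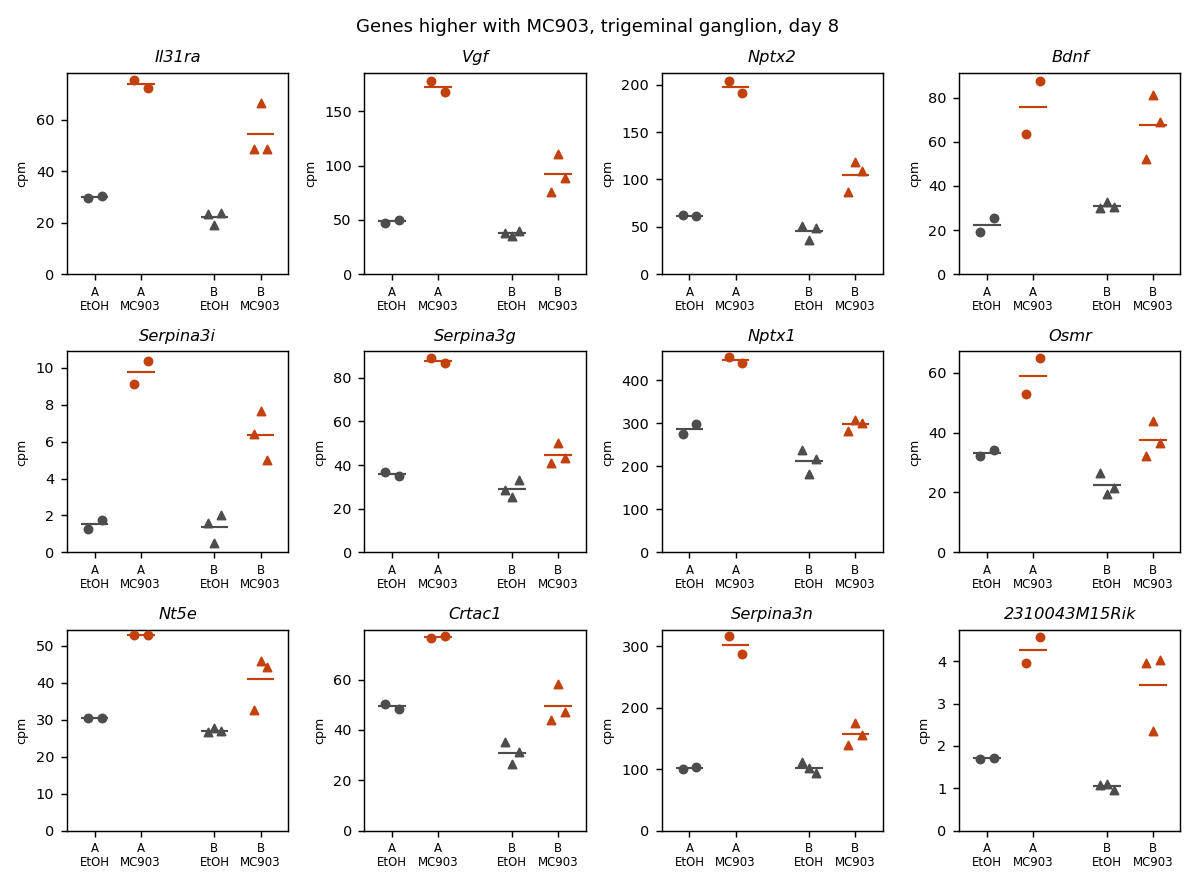
Levels of 12 genes that rose with MC903, in cpm on a linear axis from 0, with one point for each library, circles for cohort A and triangles for cohort B, and a bar at the mean of each group. The 12 had the smallest adjusted p among the higher genes whose treatments did not overlap within either cohort. Il31ra stood at 48.4 to 75.2 cpm in the 5 MC903 libraries and at 19.2 to 30.2 cpm in the 5 ethanol libraries.

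Both subunits of the interleukin 31 receptor, which NP3 itch neurons carry, rose. Il31ra (ENSMUSG00000050377), which encodes the ligand-binding subunit of the interleukin 31 receptor, was measured in the MC903 libraries at 75.2 and 72.2 cpm in cohort A and at 48.4, 66.5 and 48.6 cpm in cohort B. In the ethanol libraries it was measured at 29.6 and 30.2 cpm in cohort A and at 23.3, 19.2 and 23.7 cpm in cohort B. Every MC903 library was above every ethanol library, and the group means were 62.2 ± 12.9 and 25.2 ± 4.63 cpm (SD, n = 5 each). The log2 fold change was 1.30 ± 0.10 (SE; 2.47-fold), with an adjusted p of 8.98e-05 by the edgeR quasi-likelihood test, and it was 1.30 in either cohort alone. Osmr (ENSMUSG00000022146) encodes the oncostatin M receptor subunit that pairs with IL31RA to form the interleukin 31 receptor. Its MC903 libraries held 52.9 and 64.9 cpm in cohort A and 32.2, 44 and 36.7 cpm in cohort B. Its ethanol libraries held 32.3 and 34.1 cpm in cohort A and 26.5, 19.5 and 21.5 cpm in cohort B. The treatments were apart within each cohort but overlapped across cohorts, since cohort A was higher in both treatments. The log2 fold change of Osmr was 0.78 ± 0.11 (adjusted p = 0.0245, edgeR quasi-likelihood test).

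The other 8 genes of the NP3 list did not pass the test. The list had 2 of 10 genes past the threshold, both higher, against 0.125% of all genes tested. Its log2 fold changes were above 0 in 9 of 10 genes, against 13097 of 25600 over all genes. The list's median was 0.51, against 0.0077 over all genes tested. Its summed level was 273 to 404 cpm with MC903 and 204 to 231 cpm with ethanol. The study named some of these genes from the same libraries, so these values are not independent evidence. Nppb, the precursor of natriuretic peptide B, was low, with MC903 values of 4.05 to 7.86 cpm and ethanol values of 0.325 to 3.03 cpm (log2 fold change 1.79 ± 0.42, adjusted p = 0.231 by the edgeR quasi-likelihood test). These ranges did not overlap, but the ethanol libraries differed among themselves by more than the gap. Trpa1, an irritant-gated cation channel needed for several forms of itch, had a log2 fold change of 0.47 ± 0.10 (adjusted p = 0.164, edgeR quasi-likelihood test). Cysltr2, a cysteinyl leukotriene receptor, had one of 0.92 ± 0.30 (adjusted p = 0.60, edgeR quasi-likelihood test).

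In the NP1 and NP2 list, 1 of 9 genes passed and was lower, against 0.0352% of all genes tested. The list's median log2 fold change was -0.26, which was -0.06 without cohort B ethanol replicate 3, -0.16 without cohort B MC903 replicate 2 and -0.04 in cohort A alone. Mrgprb5, a Mas-related receptor gene, was at 3.97 and 5.45 cpm with MC903 in cohort A and at 8.68, 6.60 and 8.22 cpm in cohort B. With ethanol it was at 14.3 and 12.5 cpm in cohort A and at 11.3, 13.9 and 11.2 cpm in cohort B. All MC903 libraries were below all ethanol libraries, and the gap was wider in cohort A. The log2 fold change was -0.97 ± 0.18 (adjusted p = 0.0846, edgeR quasi-likelihood test), and near-identical receptor copies could share reads with it. None of the 10 genes of cold and mechanoreceptor neurons passed (median -0.04).

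Of the secreted and synaptic genes that neurons switch on with activity, 4 rose. Vgf (ENSMUSG00000037428), the precursor of several neuropeptides, was at 178 and 167 cpm with MC903 in cohort A and at 75.7, 111 and 88.7 cpm in cohort B. With ethanol it was at 46.9 and 50.1 cpm in cohort A and at 38.2, 34.9 and 40.1 cpm in cohort B. The groups did not overlap, and the cohort A MC903 libraries were highest. The log2 fold change of Vgf was 1.5 ± 0.12 (2.84-fold, adjusted p = 8.98e-05 by the edgeR quasi-likelihood test), 1.83 in cohort A and 1.28 in cohort B. Nptx2, a secreted pentraxin that clusters glutamate receptors at synapses, was at 204 and 192 cpm against 62.2 and 61.1 cpm in cohort A. In cohort B it was at 87.3, 118.5 and 109 cpm with MC903 against 51, 36.1 and 48.8 cpm with ethanol. Its log2 fold change was 1.4 ± 0.12 (adjusted p = 0.000155, edgeR quasi-likelihood test). The related pentraxin Nptx1 was 242 ± 46.1 cpm with ethanol and 357 ± 82.5 cpm with MC903 (SD, n = 5 each; log2 fold change 0.55 ± 0.08).

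Bdnf (ENSMUSG00000048482) encodes brain-derived neurotrophic factor, a growth factor that nociceptors release onto spinal neurons. With MC903 it was measured at 63.7 and 87.7 cpm in cohort A and at 52.3, 81.2 and 68.8 cpm in cohort B. With ethanol it was measured at 19.1 and 25.4 cpm in cohort A and at 30, 32.7 and 30.3 cpm in cohort B. The lowest MC903 library was above the highest ethanol library, and the log2 fold change was 1.38 ± 0.16 (2.6-fold, adjusted p = 0.00259 by the edgeR quasi-likelihood test). In all, 4 of the 13 activity-induced secreted and synaptic genes rose and none fell, with a median log2 fold change of 0.55. Over all genes tested, 0.125% rose and 0.0352% fell, with a median of 0.0077. The study named some of these genes from the same libraries, so the count is not independent evidence. The list's summed level was 1330 to 1733 cpm with MC903 and 1076 to 1131 cpm with ethanol. The sensory neuron markers overlapped between treatments over all libraries, but their sum was higher with MC903 in cohort A. Alkal2, a ligand of the ALK receptor, had a log2 fold change of 1.95 ± 0.39 and missed the threshold (adjusted p = 0.106, edgeR quasi-likelihood test).

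Among 12 genes of peptidergic neurons, Calca alone passed, while 0.125% of all genes tested rose. Calca encodes the vasodilator neuropeptide CGRP and was an abundant transcript. The MC903 values were 566 and 764 cpm in cohort A and 770, 832 and 775 cpm in cohort B, and the ethanol values were 467 and 464 cpm in cohort A and 600, 521 and 519 cpm in cohort B. Cohort A MC903 replicate 1 lay below the other MC903 libraries and within the ethanol range, and with all 10 libraries the fitted log2 difference was 0.53 ± 0.08 (adjusted p = 0.0321, edgeR quasi-likelihood test). The list's median log2 fold change was 0.37, but 0.11 without cohort B MC903 replicate 1 and 0.06 in cohort A alone.

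Of 20 immediate early transcription factor genes, 2 rose, both encoding subunits of the AP-1 factor. Of all genes tested, 0.125% rose. Junb was 17 ± 2.37 cpm with MC903 and 9.0 ± 2.20 cpm with ethanol (log2 fold change 0.92 ± 0.16), and Fosl2 was 32.6 ± 7.14 and 17.6 ± 3.18 cpm (log2 fold change 0.87 ± 0.14; SD, n = 5 in each group). Their MC903 and ethanol values did not overlap. Fos, the usual marker of recent firing, had a log2 fold change of 0.19, Egr1 one of 0.10 and Jun one of 0.14, and none of these passed. Other members that did not pass had larger values, among them Egr4 (2.27), Npas4 (1.26), Fosb (1.12) and Ier2 (0.67). Of the 20 genes, 16 were above 0 and 4 below. The list's median was 0.22, and 0.10 without cohort B ethanol replicate 2, 0.34 without cohort B ethanol replicate 1 and 0.33 without cohort B ethanol replicate 3. Junb lies opposite Prdx2 on the genome, and since the strand setting of the counting is not given, their reads cannot be told apart where they overlap. None of 15 nerve injury and regeneration genes tested passed, with a median of 0.27 (0.17 without cohort A ethanol replicate 1, 0.09 in cohort B alone), and Atf3, an injury-induced factor, had a log2 fold change of 0.30.

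Protease inhibitors of the Serpina3 group and regulators of cytokine signalling also rose. Serpina3i had a log2 fold change of 2.40 ± 0.30 (5.27-fold, adjusted p = 0.00648 by the edgeR quasi-likelihood test), with MC903 values of 9.10 and 10.4 cpm in cohort A and 6.4, 7.64 and 4.99 cpm in cohort B. Its ethanol values were 1.27 and 1.77 cpm in cohort A and 1.59, 0.532 and 2.02 cpm in cohort B, so the groups did not overlap. Serpina3n, a secreted inhibitor of serine proteases that neurons and glia make in inflammation, was at 316 and 288 cpm with MC903 in cohort A and at 140, 175 and 156 cpm in cohort B. With ethanol it was at 100 and 103 cpm in cohort A and at 112.3, 102 and 92.9 cpm in cohort B. The ethanol libraries were alike in both cohorts, whereas the MC903 libraries of cohort A were higher than those of cohort B. The log2 fold change of Serpina3n was 1.57 in cohort A, 0.62 in cohort B and 1.0 ± 0.15 over both (adjusted p = 0.0268, edgeR quasi-likelihood test). Serpina3g rose by 0.89 ± 0.13 on the log2 scale. In the wider group of Serpina3 genes, which was gathered after the values were seen, 3 of 10 tested rose, against 0.125% of all genes tested. The group's median was 0.91, and 0.57 in cohort B alone, and these genes are close copies that could share reads.

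Socs3 encodes a feedback inhibitor of JAK-STAT signalling. It was measured with MC903 at 14.2 and 17 cpm in cohort A and at 11.5, 14.2 and 14.7 cpm in cohort B, and with ethanol at 7.13 and 6.96 cpm in cohort A and at 7.91, 4.94 and 8.73 cpm in cohort B. The groups were apart in both cohorts, and the log2 fold change was 1.0 ± 0.16 (2.01-fold, adjusted p = 0.0321 by the edgeR quasi-likelihood test). Socs3 was the 1 gene called among 20 acute phase and inflammatory genes, while 0.125% of all genes tested rose. The list's median log2 fold change was 0.92, and its summed level was 48.2 to 67.4 cpm with MC903 and 29.5 to 38.1 cpm with ethanol. That median was 0.51 without cohort B MC903 replicate 3, 0.24 in cohort B alone and 0.35 over the 14 members that passed filterByExpr, a stricter filter on low counts. Sbno2, a transcriptional regulator in the interleukin 6 and interleukin 10 response, also passed, at 34.6 ± 9.51 cpm with MC903 and 20.2 ± 2.28 cpm with ethanol.

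The promoter windows of 5 of these genes are shown because they hold a motif of a factor whose pathway genes are described here. They are RefSeq sequences on GRCm38.p6, each from 250 bases before to 50 bases after a transcription start, on the strand of the gene. The patterns searched for were TTCNNNGAA for STAT factors and TGANTCA for AP-1 factors, where N admits any base. Matches on either strand are in capitals. The windows are chr13:112580613-112580912 (minus strand) for Il31ra, chr15:6874264-6874563 (minus strand) for Osmr, chr12:104262872-104263171 (plus strand) for Serpina3i, chr12:104235897-104236196 (plus strand) for Serpina3g and chr11:117969317-117969616 (minus strand) for Socs3. The match is to the STAT motif in all but Osmr, where it is to the AP-1 pattern, as TGATTCA, just after the transcription start.
Il31ra: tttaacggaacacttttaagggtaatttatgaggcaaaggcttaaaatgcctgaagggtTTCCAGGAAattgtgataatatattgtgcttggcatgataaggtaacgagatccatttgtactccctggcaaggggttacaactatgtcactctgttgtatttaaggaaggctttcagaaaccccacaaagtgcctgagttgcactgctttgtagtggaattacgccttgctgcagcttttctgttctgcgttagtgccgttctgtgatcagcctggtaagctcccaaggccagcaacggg
Osmr: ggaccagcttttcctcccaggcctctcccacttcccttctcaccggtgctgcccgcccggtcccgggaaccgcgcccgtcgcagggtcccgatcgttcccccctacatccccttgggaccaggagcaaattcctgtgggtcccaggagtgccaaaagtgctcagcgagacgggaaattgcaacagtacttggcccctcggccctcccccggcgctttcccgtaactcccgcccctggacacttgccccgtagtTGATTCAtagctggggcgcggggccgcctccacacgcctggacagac
Serpina3i: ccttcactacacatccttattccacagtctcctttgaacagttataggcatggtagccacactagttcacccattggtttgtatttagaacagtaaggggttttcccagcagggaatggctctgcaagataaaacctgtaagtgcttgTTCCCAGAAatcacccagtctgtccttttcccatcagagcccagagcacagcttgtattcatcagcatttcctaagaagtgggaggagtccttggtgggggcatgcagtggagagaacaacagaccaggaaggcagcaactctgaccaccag
Serpina3g: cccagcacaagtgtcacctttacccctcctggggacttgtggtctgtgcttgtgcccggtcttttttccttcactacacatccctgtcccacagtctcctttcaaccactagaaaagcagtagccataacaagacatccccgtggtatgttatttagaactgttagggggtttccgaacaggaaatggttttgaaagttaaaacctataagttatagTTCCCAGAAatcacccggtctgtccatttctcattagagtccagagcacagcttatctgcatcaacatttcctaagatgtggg
Socs3: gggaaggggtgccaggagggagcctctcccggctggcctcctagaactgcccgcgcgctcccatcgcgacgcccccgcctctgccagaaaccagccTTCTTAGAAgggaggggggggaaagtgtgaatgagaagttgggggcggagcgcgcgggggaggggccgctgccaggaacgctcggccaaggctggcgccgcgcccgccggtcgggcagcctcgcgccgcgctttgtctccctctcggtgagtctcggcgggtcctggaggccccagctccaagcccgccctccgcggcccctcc

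Windows were found for 25 of the 32 genes that rose and for 3 of the 9 that fell. A STAT motif was present for 8 of the 25 genes (32%) and for 9.55% of all 27025 genes with a window, and an AP-1 motif for 4 of the 25 (16%) and for 8.97% of all genes. A gene counted if any of its windows matched, and some genes have several windows. By window, a STAT motif was in 9 of 38 for the genes that rose and in 8.30% of all 32851. An AP-1 motif was in 4 of the 38 and in 7.81% of all windows. Serpina3g and Serpina3i, which are close copies, were counted as separate genes. None of the 3 lower genes with a window held either motif. A motif match is a description of the sequence and not a measured binding site.

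Tmem173, better known from immune cells, also rose. It encodes STING, the adaptor through which cells respond to cytosolic DNA. Its level was 8.68 and 12.3 cpm with MC903 in cohort A and 6.30, 6.16 and 7.60 cpm in cohort B, against 2.41 and 3.01 cpm with ethanol in cohort A and 3.69, 1.01 and 2.25 cpm in cohort B. The groups did not overlap, and the log2 fold change was 1.71 ± 0.28 (3.27-fold, adjusted p = 0.0321 by the edgeR quasi-likelihood test). No other gene among the 9 tested for sensing of nucleic acids passed, while 0.125% of all genes tested rose.

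The other genes described here that rose had smaller changes or lower levels. Among regulators of transcription and signalling, Etv5 (an ETS-family factor) rose by 0.48, Pim3 (a kinase) by 0.61, Pkib (an inhibitor of protein kinase A) by 0.60, Tifa (an adaptor in NF-kB signalling) by 0.73 and Gadd45g (a stress sensor) by 0.90 on the log2 scale. Among enzymes and surface or secreted proteins, Nt5e, which makes adenosine outside the cell, rose by 0.68, F3 (tissue factor) by 0.72, Crtac1 by 0.66 and Tyrp1 by 0.66. The matrix enzymes Loxl4, Adamts8 and Plod3 rose by 1.39, 1.38 and 0.44. Etnppl, an enzyme of ethanolamine phosphate breakdown, rose by 1.17, and Timeless, a replication factor, by 0.67. Their adjusted p-values ran from 0.0253 for Nt5e to 0.098 for Plod3 (edgeR quasi-likelihood test with Benjamini-Hochberg adjustment). Tifa, Timeless and Plod3 each overlap another gene on the opposite strand. The remaining 2 genes are antisense RNAs by annotation. 2310043M15Rik, opposite Dop1b, had a log2 fold change of 1.56 ± 0.24, and 9230105E05Rik, opposite Hmga2, had 22 to 70 counts per MC903 library and 0 to 5 per ethanol library, so its fitted log2 fold change of 3.97 rests on few reads. For neither can reads of the opposite gene be told apart.

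**Figure D2:**
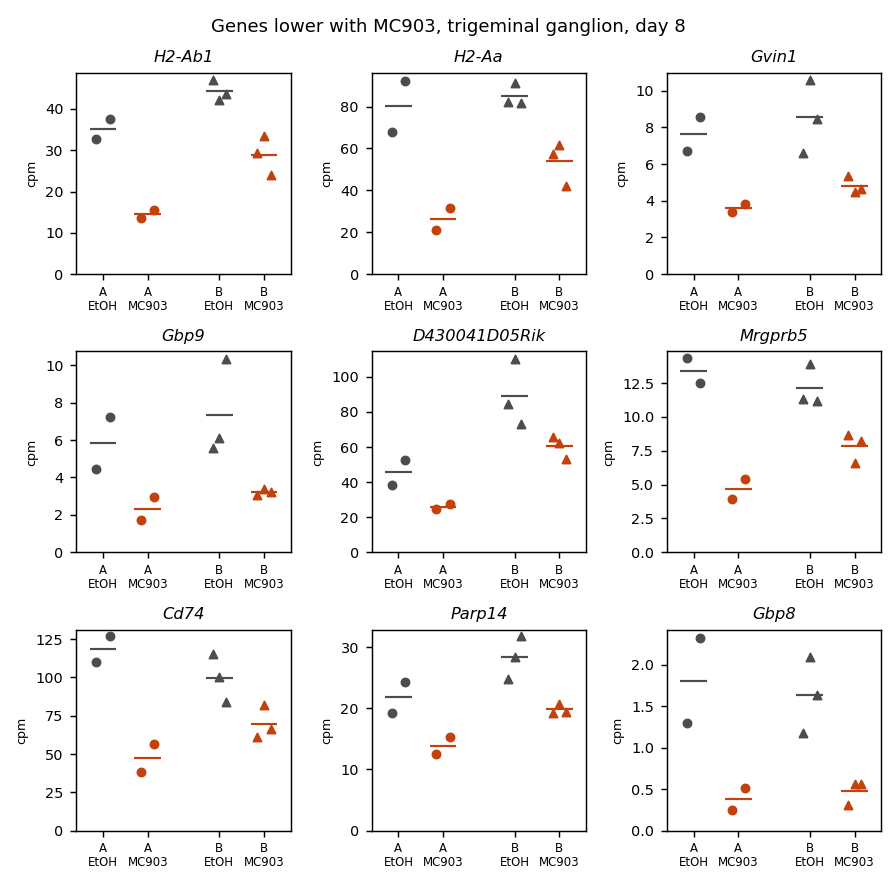
Levels of the 9 genes that fell with MC903, in cpm on linear axes from 0, one point for each library, circles for cohort A, triangles for cohort B, and a bar at each group's mean. H2-Aa stood at 20.8 to 61.9 cpm in the MC903 libraries and 67.9 to 92.3 cpm in the ethanol libraries.

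The MHC class II genes H2-Aa, H2-Ab1 and Cd74 fell. H2-Aa, which encodes an MHC class II alpha chain, was at 20.8 and 31.8 cpm with MC903 in cohort A and at 57.4, 61.9 and 42.1 cpm in cohort B. With ethanol it was at 67.9 and 92.3 cpm in cohort A and at 81.9, 91.2 and 81.8 cpm in cohort B. The groups did not overlap, and the log2 fold change was -1.03 ± 0.18 (adjusted p = 0.0572, edgeR quasi-likelihood test), -1.61 in cohort A and -0.66 in cohort B. H2-Ab1, the matching beta chain, was 23.1 ± 8.63 cpm with MC903 and 40.6 ± 5.55 cpm with ethanol (SD, n = 5 each; log2 fold change -0.88 ± 0.14, adjusted p = 0.0288 by the edgeR quasi-likelihood test). Cd74, the invariant chain that guides these molecules, was 60.7 ± 15.8 and 107 ± 16.2 cpm (log2 fold change -0.84 ± 0.16). In a list of MHC class II genes gathered after these values were seen, 3 of 10 tested fell, against 0.0352% of all genes tested. The list's median was -0.80 (-0.52 in cohort B alone), and its summed level was 99.7 to 232 cpm with MC903 and 256 to 310 cpm with ethanol. The macrophage markers mark cells that carry MHC class II, and none of the 8 passed. Their sum overlapped between treatments over all libraries and in cohort B. In cohort A it was lower with MC903 (87.4 and 79.9 against 95.8 and 105 cpm). Whether the number of such cells changed was not tested.

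The interferon-inducible GTPase genes Gbp8, Gbp9 and Gvin1 also fell. Gbp9 was 2.86 ± 0.662 cpm with MC903 and 6.74 ± 2.22 cpm with ethanol (log2 fold change -1.24 ± 0.23), and Gbp8 was 0.438 ± 0.153 and 1.71 ± 0.495 cpm (log2 fold change -1.95 ± 0.38). Gvin1, a giant GTPase, was 4.33 ± 0.765 and 8.18 ± 1.64 cpm (log2 fold change -0.93 ± 0.17; SD, n = 5 in each group). Gbp8 had 7 to 20 counts per MC903 library, and Gbp8, Gbp9 and Gbp4 overlap on 1 strand, so reads could be split among them. Of 12 guanylate-binding protein genes, Gvin1 included, listed after the values were seen, 3 passed the test and were lower, against 0.0352% of all genes tested. All 12 log2 fold changes were negative (median -1.28), against 12503 of 25600 over all genes. The summed level of the 12 genes was 37.5 to 81.6 cpm with MC903. With ethanol it was 185 cpm in cohort A replicate 2 and 212 cpm in cohort B replicate 3, against 82.5 to 106 cpm in the other ethanol libraries. When each library was left out in turn, Gbp8 and Gbp9 kept their call in 2 of the 10 fits and Gvin1 in 3. Parp14, an ADP-ribosyltransferase induced by interferon, fell to 17.5 ± 3.45 from 25.8 ± 4.74 cpm.

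A separate list of 22 interferon-induced genes, which does not hold Gbp8, Gbp9, Gvin1 or Parp14, had no gene past the threshold, although all 22 log2 fold changes were negative, with a median of -1.10. A single library weighed on that median. The summed level of the list was 1064 cpm in cohort B ethanol replicate 3 against 263 to 450 cpm in the other ethanol libraries and 225 to 271 cpm in the MC903 libraries. Without that library the median was -0.47 with 19 of 22 negative, and in cohort A alone, which does not hold it, the median was -0.68. The cohort A sums were 263 and 450 cpm with ethanol and 225 and 234 cpm with MC903, so ethanol replicate 2 weighed on the cohort A median. Usp18, which removes the ubiquitin-like protein ISG15, was at 36.2 cpm in cohort B ethanol replicate 3 and at 4.72 to 8.34 cpm in the other ethanol libraries. D430041D05Rik also fell, from 71.8 ± 27.8 to 46.6 ± 19.3 cpm (log2 fold change -0.66 ± 0.12), with cohort B higher than cohort A in both treatments.

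**Figure D3:**
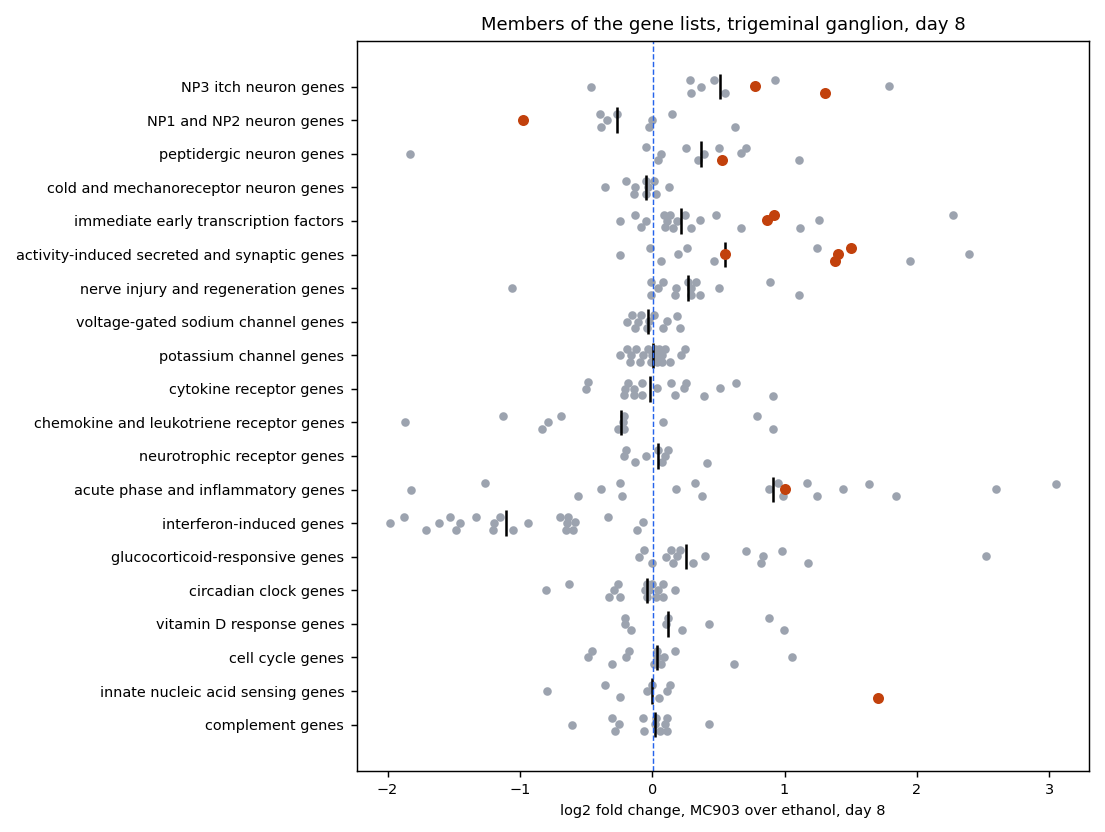
Log2 fold change (MC903 over ethanol) of each member of 20 gene lists, one point per gene, red where the gene passed an adjusted p of 0.1, with a black bar at the list's median and a dashed line at the median over all genes tested (0.0077). The interferon-induced genes all lie below 0 with none past the threshold, and the ion channel lists lie close to 0.

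Ion channel and receptor lists held no called gene. For 12 voltage-gated sodium channel genes the median log2 fold change was -0.03 and for 20 potassium channel genes 0.0088. Likewise none of 18 other cytokine receptor genes (median -0.02), a list that does not hold Il31ra and Osmr, and none of 12 chemokine and leukotriene receptor genes (median -0.24) or 9 neurotrophic receptor genes (median 0.04) passed. None of 9 vitamin D response genes passed, with a median of 0.12, nor any of 13 cell cycle genes (0.04), 16 circadian clock genes (-0.04) or 13 complement genes (0.02). Among 16 glucocorticoid-responsive genes the median was 0.26. Plin4, a lipid droplet protein on that list, was at 125.2 cpm in cohort A MC903 replicate 1 and at 1.16 to 52.8 cpm in the other MC903 libraries (log2 fold change 2.53 ± 0.53, not called). A gene that missed the threshold is not shown to be without a difference, and the medians of the sodium channel, potassium channel, cytokine receptor, cell cycle and complement lists changed sign when single libraries were left out. The vitamin D median ran from 0.04 to 0.37 in those fits and the chemokine and leukotriene receptor median from -0.34 to -0.16.

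**Figure D4:**
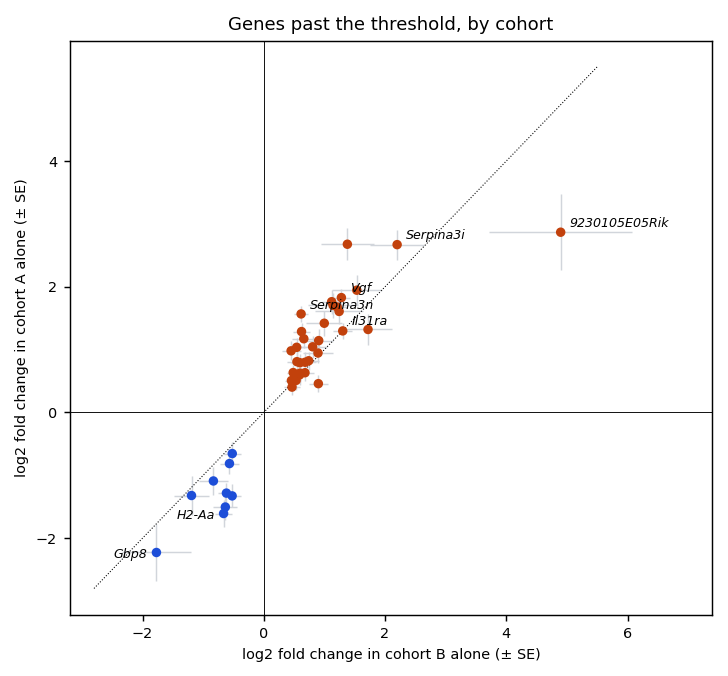
Log2 fold change (MC903 over ethanol) of the 41 called genes in cohort B alone (horizontal axis) and in cohort A alone (vertical axis), with bars for the standard error, red for genes that rose and blue for genes that fell, and a dotted line of equality. All points lie in the lower left and upper right quadrants, most of them farther from 0 in cohort A.

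The cohorts showed the called genes in the same direction and in different sizes. All 32 higher genes were above 0 in each cohort alone, with a median log2 fold change of 1.09 in cohort A and 0.77 in cohort B, and all 9 lower genes were below 0, with medians of -1.32 and -0.63. Both cohorts entered the test that chose these genes, so the shared direction is a description. Tested on its own, cohort A (2 libraries a group) gave 63 genes past the threshold and cohort B (3 a group) gave 1. The difference of the MC903 effect between cohorts, tested as an interaction, passed for 0 genes (edgeR quasi-likelihood test), while 643 had an unadjusted p under 0.05. Serpina3n had an interaction of 0.95 ± 0.17 on the log2 scale, which the DESeq2 Wald test called (adjusted p = 0.00309) and edgeR did not. H2-Aa had one of -0.94 ± 0.28, which neither tool called.

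**Figure D5:**
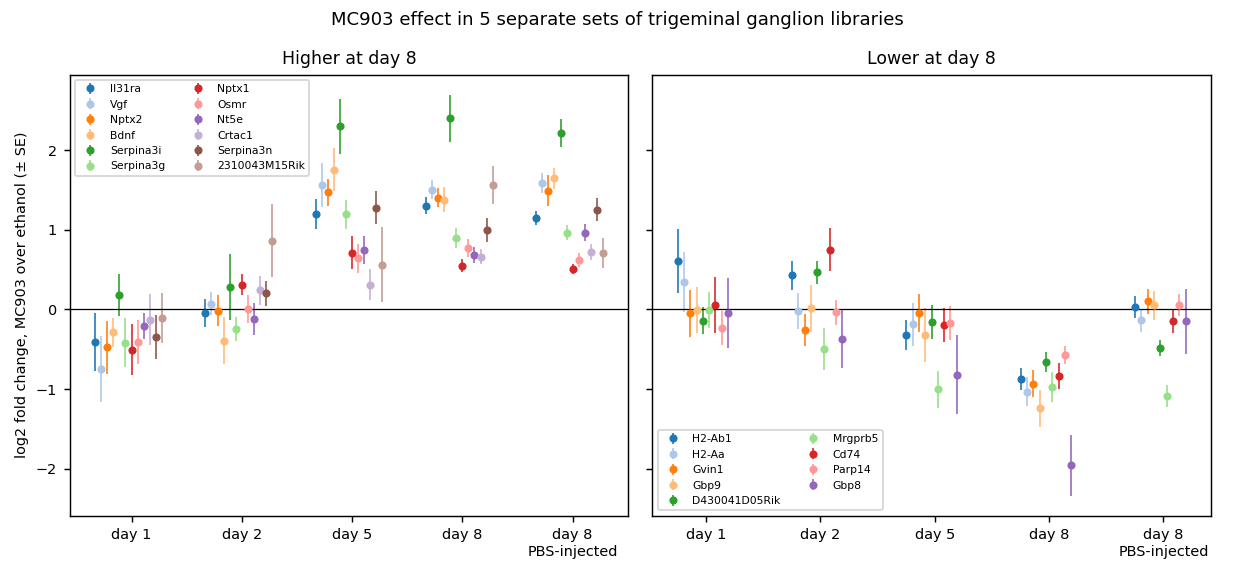
Log2 fold change (MC903 over ethanol, ± SE) at days 1 (6 hours after the first treatment), 2, 5 and 8 and at day 8 in PBS-injected mice, each set against its own ethanol libraries, for the 12 higher genes (left) and 9 lower genes (right) named above. Il31ra was -0.41 at day 1 (0.06 without the 2 MC903 libraries of low neuron markers), 1.19 at day 5, 1.30 at day 8 and 1.15 after PBS.

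The same contrast was measured in other ganglion libraries of the series, each set with its own ethanol controls and none shared with the 10 described here. These were 8 libraries at day 1, 5 at day 2, 6 at day 5 and 7 at day 8 from mice that had been injected with PBS (4 MC903 and 3 ethanol), the control for an antibody injection. Day 1 stands for 6 hours after the first treatment. In 2 of the 4 MC903 libraries of day 1 the sensory neuron markers summed to 3199 and 4467 cpm, against 7103 to 9677 cpm in the other day 1 libraries, and the satellite glia markers to 7094 and 8278 cpm, against 2024 to 3372 cpm. In 2 of the 3 ethanol libraries of day 5 the pituitary markers summed to 10876 and 5961 cpm, against 52.8 to 611 cpm in the other day 5 libraries. At day 1 and day 2 no gene passed the threshold (edgeR quasi-likelihood test), with 2034 and 1527 at an unadjusted p under 0.05. For the 32 genes that rose at day 8, the median log2 fold change was -0.18 at day 1, 0.18 at day 2 and 0.84 at day 5, where 30 of 32 were positive. The day 1 median changed sign without the 2 MC903 libraries of low neuron markers, to 0.06 with 18 of 32 positive. Without the 2 ethanol libraries of high pituitary markers, the day 5 median was 0.81. Day 5 had 2 called genes of 24300 (0.00823%), Nptx2 and Alkal2, and without those 2 ethanol libraries, which leaves 1, neither was called. No gene's effect differed between day 8 and day 5 past the threshold in the test of the difference, with 1033 at an unadjusted p under 0.05. Bdnf was at 71.2 to 119.3 cpm with MC903 at day 5 against 21 to 36.2 cpm with ethanol (log2 fold change 1.75 ± 0.27).

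In the PBS-injected mice, 31 of the 32 higher genes were called in the same direction. There, 452 genes were called higher (1.91%) and 344 lower (1.45%) of 23708 tested. The 33 genes called the same way in both sets made up 80.5% of the genes called in uninjected mice and 4.15% of those called after PBS. Il31ra was at 32.6 to 40.5 cpm with MC903 and 15.4 to 16.5 cpm with ethanol (log2 fold change 1.15 ± 0.08, adjusted p = 4.73e-05 by the edgeR quasi-likelihood test), Socs3 had a log2 fold change of 1.44 ± 0.12 and Tmem173 one of 1.72 ± 0.18. Nppb and Trpa1, which missed the threshold in uninjected mice, passed here, with log2 fold changes of 1.97 ± 0.18 (adjusted p = 0.000108) and 0.47 ± 0.06 (adjusted p = 0.000812, both edgeR quasi-likelihood test).

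Of the 9 lower genes, 2 were called lower after PBS, Mrgprb5 (log2 fold change -1.09 ± 0.14) and D430041D05Rik (-0.48 ± 0.10). H2-Ab1 was at 13.9 to 21.5 cpm with MC903 and 16.3 to 18 cpm with ethanol there, H2-Aa had a log2 fold change of -0.14 ± 0.14 and Gbp9 one of 0.05 ± 0.18. The MHC class II list had a median of -0.07 and no called gene, and the 22 interferon-induced genes had a median of 0.47 with 7 called higher. The difference between uninjected and PBS-injected mice passed the threshold for no gene (edgeR quasi-likelihood test), and 736 had an unadjusted p under 0.05. Among these were H2-Ab1 (difference -0.91 ± 0.22), Gvin1 (-1.04 ± 0.25) and Gbp9 (-1.30 ± 0.33). The ethanol libraries of the sets also differed in level, with H2-Aa at 67.9 to 92.3 cpm in uninjected and 22.3 to 24.7 cpm in PBS-injected mice. Injection and any other difference between these sets of mice cannot be told apart.

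Wild-type libraries labelled trigeminal ganglion at day 12 were not compared in this way, and those of TSLPR KO mice were not analysed here. Of the 9 wild-type libraries, 6 (5 MC903 and 1 ethanol) held sensory neuron markers summing to 21 to 114.9 cpm and keratinocyte markers summing to 8616 to 29789 cpm, against 6269 to 11972 cpm of neuron markers in the other 3, so the tissue label and the markers go apart in those 6. Of the other 3, ethanol replicate 2 had a keratinocyte sum of 4580 cpm and the remaining pair 4.89 and 4.06 cpm.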

How the data were processed

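Ganglion RNA was measured by RNA-seq. The authors extracted it with RNAzol and selected poly(A) RNA for single-end sequencing. Per the submitters' notes and the study's methods, alignment to mm10 used Bowtie2 and TopHat, and HTSeq did the counting. The deposited values are raw counts for Ensembl genes, not normalized. The strand setting and annotation release are not given in the sources used here. Each library lists 46078 genes, of which 45143 matched GENCODE release M21 for symbols and 935 did not. The 5 tally lines were left out: reads on no gene equal 10.1% to 13.3% and ambiguous reads 2.19% to 2.58% beside the counts. Total counts of 26757001 to 38017376 per library limit precision for genes of few counts.

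Counts were tested with edgeR 4.0.16 in R 4.3.3 (quasi-likelihood F test, TMM, genes with at least 10 counts in total, terms for cohort and treatment), with Benjamini-Hochberg adjustment and a threshold of 0.1, the study's for this tissue. The interaction tests used the same tool. Gene levels are cpm with TMM, and folds are MC903 over ethanol. Replicates were not identical, and replicate numbers did not pair libraries. The script for the fits was tested on simulated data. DESeq2 1.42.0, other scaling, filters, cohorts and leaving out each library were alternatives. The named genes are up to 12 called genes in each direction, the genes the study names for this tissue, and list members. Those called genes had the smallest adjusted p among the ones whose treatments did not overlap within either cohort. Their lack of overlap was thus part of the choice. The members and lists were chosen with earlier results of these data known. Promoter windows are from RefSeq on GRCm38.p6. Some genes that were tested are counted in the totals but not reported here.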

Additional observations from a re-analysis of the deposited data

Results flagged for a closer look

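Groups of 5 libraries were searched for a single library far from the others (Dixon's test), and 13 of 148 groups over 74 genes had one. Chance gives about 1 in 20 for 5 independent values from a single normal distribution. These groups mixed both cohorts and the genes were chosen, so that rate need not hold here. In cohort A MC903 replicate 1, Calca (566 cpm), Kcna2 (950 cpm), Calb1 (71.3 cpm) and Gbp9 (1.71 cpm) were low. In cohort B ethanol replicate 2, Rag2 (0.592 cpm), Th (9.44 cpm), Cd14 (7.84 cpm) and Etnppl (11.3 cpm) were high. In cohort B MC903 replicate 2, 2310043M15Rik was low (2.36 cpm) and C1qc high (13.6 cpm). Usp18 was high in cohort B ethanol replicate 3 (36.2 cpm), Arrdc2 in cohort A ethanol replicate 1 (13.9 cpm) and C1ra in cohort A ethanol replicate 2 (4.91 cpm). The MC903 effect differed between day 8 and day 12 in 7926 of 28449 genes by the edgeR quasi-likelihood test of the difference, and the day 12 libraries include 6 with few neuron markers, so this number was not read as a time course. In the wild-type libraries labelled trigeminal ganglion at day 12, the highest sum of keratinocyte markers was 29789 cpm, whereas the 10 libraries of day 8 held 2.80 to 49.6 cpm.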

How the results depend on the processing

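The 41 genes past the threshold (32 higher, 9 lower) became 210 (84 of them lower) with the DESeq2 Wald test, 493 (239 and 254) with no filter on low counts, 5 (5 and 0) with no cohort term, 63 (40 and 23) in cohort A alone, 1 (1 and 0) in cohort B alone and 26 (25 and 1) at a threshold of 0.05. Leaving out 1 library gave 5 to 71 genes, 5 to 47 higher and 0 to 24 lower. With RLE scaling 41 of the 41 kept their call, with filterByExpr 39, and with DESeq2 all 39 that had an adjusted p. No called gene changed direction in any alternative. Replicate numbers do not pair libraries (the correlation of same-numbered deviations was -0.08 to 0.10), and the replicate block gave 53 genes (34 higher, 19 lower). It gave 13 genes for the difference between day 8 and day 5 and 0 for that between uninjected and PBS-injected mice. For the differences, which had 0 genes past the threshold, DESeq2 gave 1 between cohorts (Serpina3n), 5 between day 8 and day 5 and 3 between uninjected and PBS-injected mice, and no filter gave 70, 80 and 26. The cause of these shifts was not tested. Of the genes not called, Rag2, near 0 in these libraries (log2 fold change -0.09), turned to 0.42 with the replicate block and ran from -1.08 to 2.61 when single libraries were left out, while Cd14 ran from -0.32 to 0.054 and was above 0 without cohort B ethanol replicate 2. Alternatives chosen after seeing the data left out day 1 MC903 replicates 1 and 2, which turned the day 1 median of the 32 higher genes from -0.18 to 0.061 and of the 9 lower genes from -0.01 to 0.11, and day 5 ethanol replicates 2 and 3, which kept the sign of both day 5 medians and gave 0 genes for the difference from day 8. Depth limits genes of a few counts, such as Rag1 and 9230105E05Rik.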

Other observations

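Rag1, a recombinase gene of developing lymphocytes, was at 0.189 to 1.19 cpm with MC903 and 0 to 0.237 cpm with ethanol (log2 fold change 3.05 ± 0.76, adjusted p = 0.319 by the edgeR quasi-likelihood test). Arrdc2, a glucocorticoid-responsive arrestin-like gene, was at 12.7 to 40.1 cpm with MC903 and 7.87 to 13.9 cpm with ethanol (log2 fold change 1.18 ± 0.24, not called). Prkcq, a protein kinase C gene, was at 23.8 to 31.3 cpm with MC903 and 33.8 to 39.7 cpm with ethanol, with no overlap and no call (log2 fold change -0.45 ± 0.09, adjusted p = 0.125 by the edgeR quasi-likelihood test).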
